A study of Mus musculus with 6 samples.

Results

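Early neural genes are the 10 genes Sox1, Sox11, Pax6, Nes, Tubb3, Map2, Ncam1, Vim, Hes5 and Fabp7. They were chosen by name, with earlier results of these data known, as markers of the first steps from ectoderm to neural progenitors and young neurons. Each of the 10 had 1 row of its own on the array, of 21797 rows and 19946 genes annotated with 1 symbol, and 0 rows paired a member with another symbol. Messenger RNA was measured on 6 Affymetrix arrays of A3-1, a mouse embryonic stem (ES) cell line kept in medium with serum and LIF, a cytokine that holds mouse ES cells undifferentiated. The 3 groups of 2 arrays each were cells given a small interfering RNA (siRNA) against Lin28a (siLin28a), cells given an siRNA against green fluorescent protein as control (siGFP), and untreated cells. Both siRNA groups were incubated for 48 h, 1 siRNA duplex was used per group, and all arrays come from 1 cell line. Nothing in the labels ties the paired arrays of a group to separate cultures, so the p-values reflect array-to-array spread that could be technical only.

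Neural induction begins when epiblast cells escape BMP and Nodal signals and switch on SOXB1 transcription factors, and the neural progenitors that form carry nestin and vimentin filaments and are held as progenitors by Notch signalling through HES proteins. SOXC factors, the neuronal tubulin TUBB3 and the dendritic protein MAP2 follow as cells become neurons. LIN28A is an RNA-binding protein of ES cells and early progenitors that blocks maturation of let-7 microRNAs, whose levels increase during neural differentiation. ES cells in serum and LIF are a mixture in which some lineage transcripts are detected at low levels.

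The reagent that separates siLin28a from siGFP cells is shown first, since it is what the main comparison tests. The labels give both strands of 19 bases, each followed by a dTdT overhang, and do not say which strand was designed as the guide. The strands are reverse complements of each other.
siLin28a, first strand: gcagaagcgaagauccaaa
siLin28a, second strand: uuuggaucuucgcuucugc

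Promoters from RefSeq (GRCm38.p6, 250 bases before to 50 bases after the annotated start, read 5′ to 3′ along the gene) matched 9 of the 10 members. Those of Sox11 and Tubb3 are shown because these genes had the largest differences in opposite directions, and that of Hes5 because it is a direct Notch target whose values hardly varied. Capitals mark every match on either strand to 1 of 5 motifs: TGGGAA, the core site of the Notch effector RBPJ; CATTGT, a SOX core site; CAGCTG, an E-box of proneural factors; CACNAG, the N-box bound by HES repressors; and the POU octamer ATGCAAAT.
Sox11 promoter, chr12:27342669-27342968, minus strand: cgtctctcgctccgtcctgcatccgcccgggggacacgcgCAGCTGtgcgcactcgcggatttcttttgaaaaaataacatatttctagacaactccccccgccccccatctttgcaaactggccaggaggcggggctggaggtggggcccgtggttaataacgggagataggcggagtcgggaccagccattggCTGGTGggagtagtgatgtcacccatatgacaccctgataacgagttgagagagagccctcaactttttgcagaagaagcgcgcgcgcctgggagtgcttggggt
Tubb3 promoter, chr8:123411303-123411602, plus strand: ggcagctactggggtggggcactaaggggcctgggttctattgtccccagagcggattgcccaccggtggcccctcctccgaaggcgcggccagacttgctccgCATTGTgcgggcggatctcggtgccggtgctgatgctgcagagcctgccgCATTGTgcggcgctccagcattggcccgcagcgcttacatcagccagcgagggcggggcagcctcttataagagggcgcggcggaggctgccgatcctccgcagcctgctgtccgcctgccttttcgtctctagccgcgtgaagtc
Hes5 promoter, chr4:154960673-154960972, plus strand: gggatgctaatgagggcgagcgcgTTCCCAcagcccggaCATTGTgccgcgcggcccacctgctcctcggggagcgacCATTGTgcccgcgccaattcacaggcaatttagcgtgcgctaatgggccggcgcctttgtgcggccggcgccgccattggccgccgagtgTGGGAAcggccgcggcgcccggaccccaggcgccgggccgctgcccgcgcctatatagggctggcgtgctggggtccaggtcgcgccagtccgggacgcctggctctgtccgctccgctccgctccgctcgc
The Hes5 promoter holds 2 RBPJ matches, 226 and 82 bases before the start, and 2 SOX matches, 211 and 172 bases before it. In the Tubb3 promoter the SOX motif matches 146 and 96 bases before the start, and in the Sox11 promoter the E-box matches 210 bases and the N-box 55 bases before it. No marked matches overlap in these promoters. Of all 32851 promoters of this length, 25.6% hold the RBPJ motif, 12.6% the SOX motif, 16.3% the E-box, 42.5% the N-box and 1.74% the octamer. Matches of this kind are frequent and describe the sequence only.

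Lin28a itself, the check of the labels, had 7.4 in both siLin28a arrays, against 9.1 and 9.4 in the siGFP arrays and 9.1 and 9.4 in untreated cells, on the log2 scale of the deposited values. Its log2 difference was -1.85 (SE 0.16, n = 2 per group) against either group, 3.60-fold lower, with an adjusted p of 0.512 against siGFP and 0.171 against untreated cells by limma. Array medians over all 35556 rows lay between 5.2 and 5.3. Upper quartiles were 7.0 and 7.1 in the siLin28a arrays and 7.2 in each siGFP and untreated array, so bright rows were slightly lower in siLin28a arrays. The mean log2 value of the 12 ES cell markers (among them Pou5f1, Nanog, Sox2 and Zfp42) was between 9.91 and 10.03 in siLin28a arrays, between 10.3 and 10.6 in siGFP arrays and between 10.4 and 10.5 in untreated arrays. All 12, Lin28a included, were lower in siLin28a than in siGFP cells, with a median log2 difference of -0.30, and 7 did not overlap, while 20.8% of all tested rows did not (11.8% lower). The median was -0.35 after each array was centred on a common median and -0.22 after cyclic loess, with all 12 lower in both. Against untreated cells all 12 were lower (median -0.25), or 11 after cyclic loess (median -0.17). Without Lin28a, a choice made after the data were seen, the other 11 markers averaged 10.14 and 10.26 in siLin28a arrays, 10.43 and 10.67 in siGFP arrays and 10.52 and 10.55 in untreated arrays, and their median difference against siGFP was again -0.30, with 6 not overlapping. Klf4, a factor of naive pluripotency, differed by -0.75 and Nanog, a core pluripotency factor, by -0.70, both with an adjusted p of 0.953 by limma. The part of these markers in the differences of neural genes was not tested. The 8 neuron markers averaged 5.55 and 5.66 in siLin28a arrays, 5.49 and 5.64 in siGFP arrays and 5.61 and 5.68 in untreated arrays, so these averages overlap between all 3 groups.

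No detection calls were used here. Rows of 1205 olfactory and vomeronasal receptors, which ES cells are not known to use, averaged between 1.57 and 4.61 over the 6 arrays from their 5th to their 95th percentile. Fabp7 (mean 2.85) and Nes (4.30) lay inside that range, Pax6 (4.72) and Map2 (5.10) just above it, and Ncam1, Hes5, Sox11, Tubb3, Sox1 and Vim further above it. Of the neuron markers averaged above, Dcx (3.65), Elavl4 (3.77) and Snap25 (4.52) lay inside it. Stmn2, another of them, had 9.9 and 10.2 in untreated arrays, so the average mixes dim rows with a bright one. Brightness also depends on a row's probes, so these means order nothing between genes.

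Against siGFP, siLin28a cells had higher Sox11 and Nes and lower Tubb3, Map2 and Ncam1, so members lay on both sides of 0. Over the 10 members 5 were higher, 4 lower and 1 equal, with a median log2 difference of 0.025. After each array was centred on a common median, 4 were higher and 5 lower (median -0.025), and after cyclic loess 6 were higher and 4 lower (median 0.04). Of all 23410 tested rows 8969 were higher and 11605 lower, with a median of 0.00. The arrays of the 2 groups did not overlap for 6 of the 10 members, 3 higher (Sox11, Pax6, Nes) and 3 lower (Tubb3, Map2, Ncam1). That separation held for 20.8% of all tested rows, 9.03% higher and 11.8% lower. By limma 0 members passed an adjusted p of 0.05, as did 0% of all rows, and 3 members had an unadjusted p under 0.05, as did 4.05% of all rows: Sox11 was higher (1.79% of rows) and Tubb3 and Map2 lower (2.26%). In bulk RNA, fewer cells of a kind and less RNA per cell cannot be told apart.

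**Figure D1:**
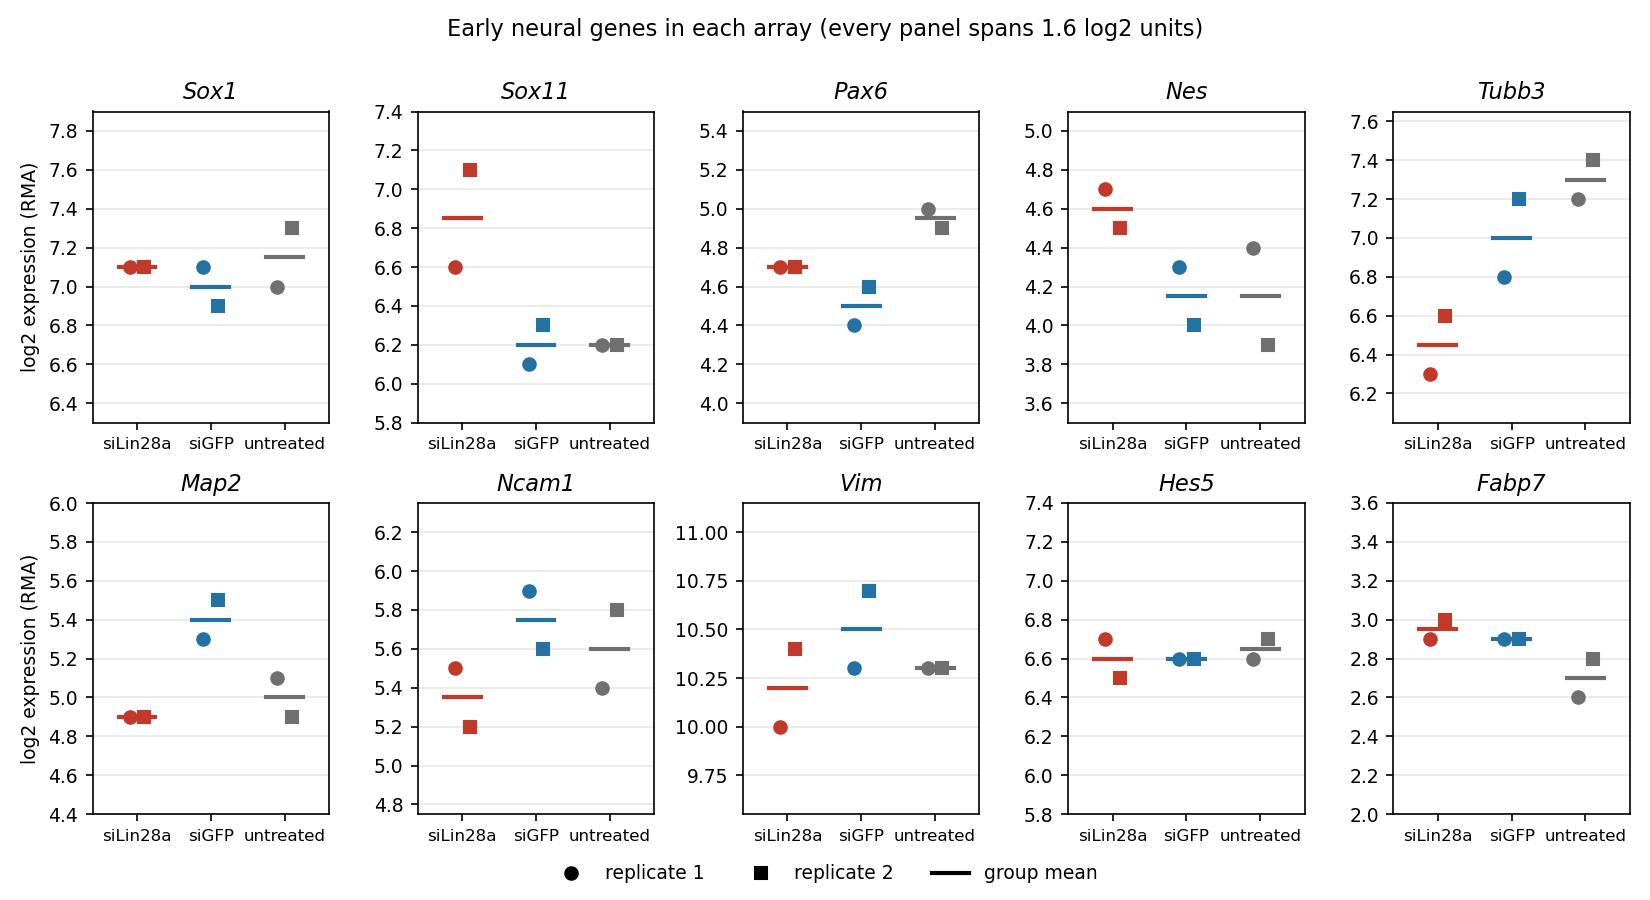
Log2 expression (RMA values, vertical axis, each panel spanning 1.6 units) of the 10 early neural genes in the 2 siLin28a, 2 siGFP and 2 untreated arrays, with circles for replicate 1, squares for replicate 2 and bars for group means. Sox11 is highest and Tubb3 lowest in both siLin28a arrays, while Hes5 stays between 6.5 and 6.7 in all 6.

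The untreated cells give another comparison for the same siLin28a arrays. Against it 3 members were higher and 7 lower (median -0.075), and arrays of 5 did not overlap: Sox11, Nes and Fabp7 were higher, Tubb3 and Pax6 lower. Over all rows 23.7% did not overlap (11.1% higher, 12.6% lower). Here too 0 members and 0% of rows passed, and 2 members had an unadjusted p under 0.05, as did 6.44% of rows: Sox11 was higher (2.89% of rows) and Tubb3 lower (3.55%). Control siRNA against untreated cells showed 4 members higher, 4 lower and 2 equal (median 0.00), or 6 higher and 3 lower with arrays centred on a common median. With cyclic loess 6 were higher and 4 lower. Arrays of 3 did not overlap, with Map2 and Fabp7 higher and Pax6 lower in siGFP cells, where 17.7% of all rows did not overlap (9.22% higher, 8.46% lower). In that comparison 0 members and 0% of rows passed, and 2 members had an unadjusted p under 0.05, as did 3.52% of rows: Map2 was higher (2.19% of rows) and Pax6 lower (1.33%). The 3 comparisons share groups, so their values are given side by side and are not separate evidence.

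**Figure D2:**
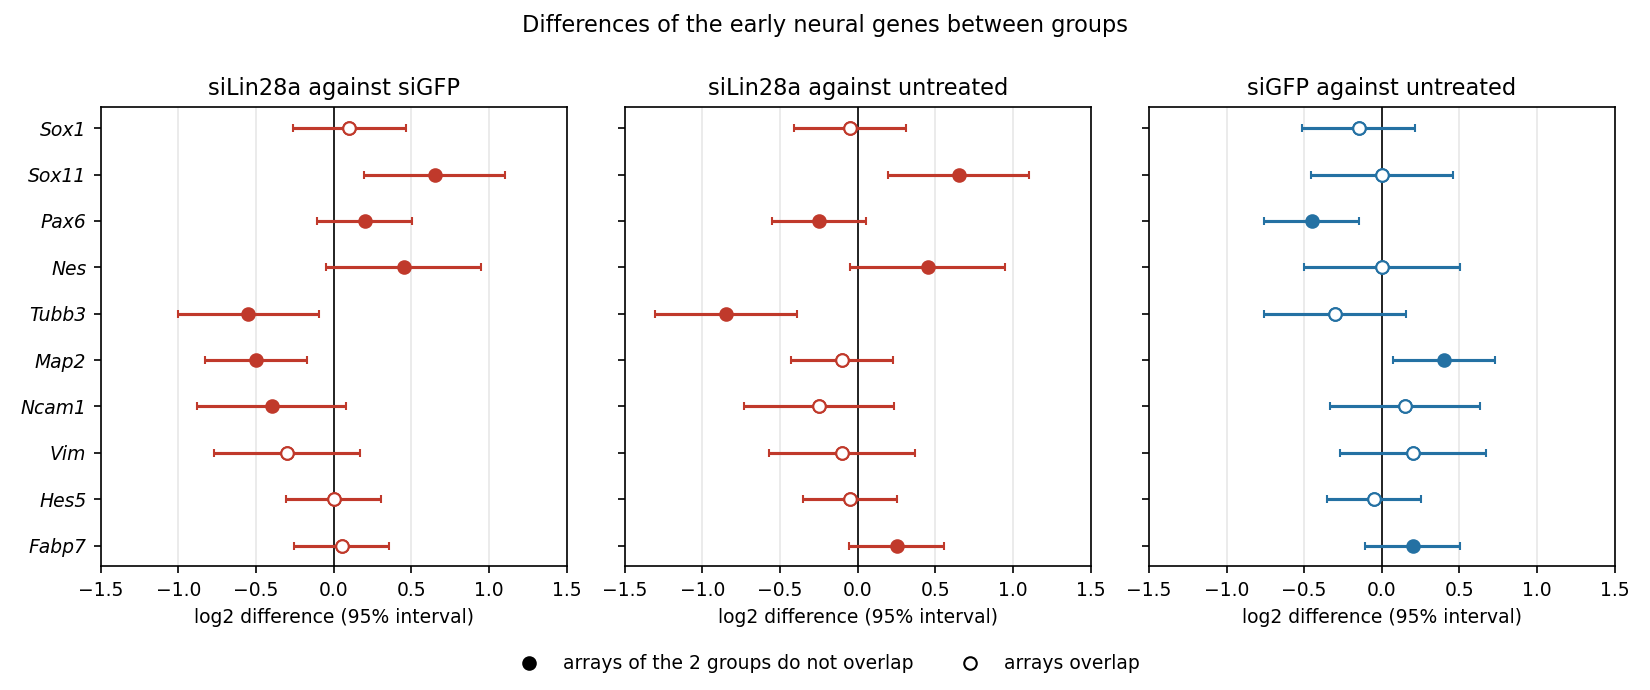
Log2 differences (horizontal axis) of the 10 members in each of the 3 comparisons, with 95% intervals from limma's moderated standard errors and filled points where the arrays of the groups do not overlap. Sox11 at 0.65 and Tubb3 at -0.55 and -0.85 lie furthest from 0 in the siLin28a comparisons, and Pax6 at -0.45 and Map2 at 0.40 in the comparison of siGFP with untreated cells.

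Among the transcription factors, Sox11 had the largest difference. SOX11 is a SOXC factor of committed neuronal precursors that activates neuronal genes. Its values were 6.6 and 7.1 in siLin28a arrays, 6.1 and 6.3 in siGFP arrays and 6.2 and 6.2 in untreated arrays. Both siLin28a arrays lay above all 4 others, and the gap of 0.5 between them was the widest between replicates of this gene. The log2 difference was 0.65 (SE 0.19, 95% interval 0.19 to 1.11), or 1.57-fold, against siGFP and equally 0.65 against untreated cells, with adjusted p of 0.953 and 0.643 by limma. Only 61 of the 23410 rows (0.261%) were at least as high against siGFP, and 147 (0.628%) against untreated cells. Without siLin28a replicate 2 both differences were 0.40. Between siGFP and untreated cells the difference was 0.00.

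Sox1, the SOXB1 factor that marks the neural plate, had 7.1 in both siLin28a arrays, 7.1 and 6.9 in siGFP arrays and 7.0 and 7.3 in untreated arrays. All 3 groups overlapped or touched. Its differences were 0.10 (95% interval -0.26 to 0.46) for siLin28a against siGFP, -0.05 (-0.41 to 0.31) for siLin28a against untreated, which was 0.0112 after cyclic loess and 0.10 without untreated replicate 2, and -0.15 (-0.51 to 0.21) for siGFP against untreated. The value against siGFP was 0.20 without siGFP replicate 1 and 0.00 without siGFP replicate 2. For siGFP against untreated cells it was -0.30 without untreated replicate 1, 0.00 without untreated replicate 2, -0.25 without siGFP replicate 1 and -0.05 without siGFP replicate 2.

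Pax6 encodes a paired-box factor of forebrain, spinal cord and eye progenitors. It had 4.7 in both siLin28a arrays, 4.4 and 4.6 in siGFP arrays and 5.0 and 4.9 in untreated arrays. The 3 groups did not overlap, with siLin28a between siGFP at the low end and untreated cells at the high end. Both siGFP values were inside the range of the receptor rows, which ended at 4.61, and the siLin28a values were just above it. The largest step was siGFP against untreated, at -0.45 (SE 0.13, 95% interval -0.76 to -0.14, adjusted p 0.961 by limma), where 272 rows (1.16%) were at least as low. siLin28a differed by 0.20 from siGFP, which was 0.10 without siGFP replicate 1 and 0.30 without siGFP replicate 2, and by -0.25 from untreated cells.

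Hes5, a bHLH repressor that Notch signalling switches on in neural progenitors, was the steadiest member. Its values were 6.7 and 6.5 in siLin28a arrays, 6.6 and 6.6 in siGFP arrays and 6.6 and 6.7 in untreated arrays, a range of 0.2 over 6 arrays. The differences were 0.00 for siLin28a against siGFP (95% interval -0.31 to 0.31) and -0.05 for siLin28a and for siGFP against untreated cells (each -0.36 to 0.26). Against untreated cells the siLin28a value was 0.05 without siLin28a replicate 2. With 2 arrays per group, any difference inside these intervals remains possible, and the intervals do not mark the size at which a difference would pass the threshold.

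Of the progenitor genes, Nes encodes nestin, the intermediate filament protein of neural stem cells. Values were 4.7 and 4.5 in siLin28a arrays, 4.3 and 4.0 in siGFP arrays and 4.4 and 3.9 in untreated arrays. Both siLin28a arrays were above all others, by as little as 0.1 over untreated replicate 1. The log2 difference was 0.45 (SE 0.21, 95% interval -0.05 to 0.95) against siGFP and against untreated cells, with adjusted p of 0.953 and 0.776 by limma. Against untreated cells it was 0.20 without untreated replicate 2 and 0.70 without untreated replicate 1. Against siGFP it was 0.30 without siGFP replicate 2. Its mean was in the range of the receptor rows, so a signal above the array's background was not shown for it.

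Vim, which encodes vimentin, the filament protein of progenitors and of mesenchymal cells, had 10 and 10.4 in siLin28a arrays, 10.3 and 10.7 in siGFP arrays and 10.3 in both untreated arrays. In each siRNA group replicate 2 was 0.4 above replicate 1, and the groups overlapped. Its difference was -0.30 (SE 0.19, 95% interval -0.77 to 0.17) against siGFP, and it was -0.10 without siLin28a replicate 1 or without siGFP replicate 2 and -0.50 without siLin28a replicate 2 or siGFP replicate 1. Against untreated cells it was -0.10, and it was 0.10 without siLin28a replicate 1 and -0.30 without siLin28a replicate 2. The 18 fibroblast and mesenchymal markers with a row averaged 5.42 and 5.36 in siLin28a arrays, 5.37 and 5.36 in siGFP arrays and 5.29 and 5.44 in untreated arrays, and 9 were higher, 5 lower and 4 equal in siLin28a against siGFP cells (median 0.025, and -0.025 with arrays centred on a common median). After cyclic loess 9 were higher and 9 lower (median 0.00). Timp3 differed by -0.40, Acta2 by 0.35 and Col3a1 by 0.25. The part of such cells in the Vim values was not tested.

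Fabp7, the brain lipid-binding protein of radial glia, had 2.9 and 3.0 in siLin28a arrays, 2.9 in both siGFP arrays and 2.6 and 2.8 in untreated arrays. Of the receptor rows 56.6% had a lower mean. Both siRNA groups lay above untreated cells, by 0.25 for siLin28a (SE 0.13, adjusted p 0.783) and by 0.20 for siGFP (adjusted p 0.961 by limma), and without untreated replicate 1 these were 0.15 for siLin28a and 0.10 for siGFP. The siGFP value was 0.30 without untreated replicate 2. Against siGFP the siLin28a difference was 0.05.

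Among genes of young neurons, Tubb3 differed most. It encodes class III beta-tubulin, a microtubule subunit used as a marker of new neurons. Its values were 6.3 and 6.6 in siLin28a arrays, 6.8 and 7.2 in siGFP arrays and 7.2 and 7.4 in untreated arrays. Both siLin28a arrays were below all 4 others, and siGFP arrays lay between, touching the untreated arrays at 7.2. The log2 difference was -0.55 against siGFP (SE 0.19, 95% interval -1.01 to -0.09), 1.46-fold lower, and -0.85 against untreated cells (95% interval -1.31 to -0.39), 1.80-fold lower. Adjusted p was 0.953 and 0.597 by limma. Of all rows 197 (0.842%) were at least as low against siGFP and 64 (0.273%) against untreated cells. The value against siGFP was -0.35 without siGFP replicate 2. For siGFP against untreated cells the difference was -0.30, and it was -0.10 without siGFP replicate 1, -0.50 without siGFP replicate 2 and -0.20 without untreated replicate 2.

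Map2 encodes a microtubule-associated protein of dendrites. It had 4.9 in both siLin28a arrays, 5.3 and 5.5 in siGFP arrays and 5.1 and 4.9 in untreated arrays. The siGFP arrays stood above both other groups, and siLin28a touched untreated cells at 4.9. Its difference was -0.50 (SE 0.14, 95% interval -0.83 to -0.17, adjusted p 0.953 by limma) for siLin28a against siGFP, 0.40 (0.07 to 0.73, adjusted p 0.961) for siGFP against untreated and -0.10 for siLin28a against untreated cells. The siLin28a value against untreated cells was 0.00 without untreated replicate 1 and -0.20 without untreated replicate 2.

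Ncam1, a neural cell adhesion molecule, had 5.5 and 5.2 in siLin28a arrays, 5.9 and 5.6 in siGFP arrays and 5.4 and 5.8 in untreated arrays. The siLin28a arrays were below both siGFP arrays and overlapped the untreated ones. The difference was -0.40 against siGFP (SE 0.20, 95% interval -0.88 to 0.08, adjusted p 0.953 by limma), and -0.25 without siGFP replicate 1 or siLin28a replicate 2. It was -0.25 against untreated cells, and it was -0.05 without untreated replicate 2, -0.45 without untreated replicate 1, -0.10 without siLin28a replicate 2 and -0.40 without siLin28a replicate 1. For siGFP against untreated cells it was 0.15, with a range of -0.05 (without untreated replicate 1) to 0.35 (without untreated replicate 2).

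Relatives of the members place these values within their gene families. In the SOXC group, Sox4, which acts with Sox11 in neuronal precursors, had 7.0 and 7.3 in siLin28a arrays, 6.5 and 6.6 in siGFP arrays and 6.7 and 7.0 in untreated arrays. It differed by 0.60 (SE 0.16) between siLin28a and siGFP and, unlike Sox11, overlapped untreated cells at 7.0. Sox12, the third SOXC gene, differed by 0.10. In the SOXB group Sox3 was higher by 0.20 in siLin28a than in siGFP cells without overlap, and differed by 0.00 from untreated cells. Sox2, Sox14 and Sox21 overlapped between siLin28a and siGFP, with differences between -0.20 and 0.05. Of the 8 SOXB and SOXC genes, Sox1 and Sox11 included, 6 were higher and 2 lower in siLin28a against siGFP cells (median 0.10), or 5 higher and 2 lower (median 0.05) with arrays centred on a common median. After cyclic loess 6 were higher and 2 lower (median 0.15). Against untreated cells 3 of the 8 were higher and 4 lower in siLin28a cells (median -0.025), and 1 higher and 5 lower in siGFP cells (median -0.125). With cyclic loess 5 were higher and 3 lower in siLin28a cells (median 0.03), and 3 higher and 5 lower in siGFP cells (median -0.13). Of 7 beta-tubulin genes with a row 3 were higher and 4 lower in siLin28a against siGFP cells (median -0.05). The median was -0.10 with arrays centred on a common median and 0.02 after cyclic loess. Tubb3 and Tubb2b, both lower, were the 2 (28.6%) that did not overlap between siLin28a and siGFP. Among all tested rows 20.8% did not overlap, 11.8% lower. Tubb2b, a tubulin of the developing cortex that ES cells also express, had 10 and 9.9 in siLin28a arrays, 10.3 and 10.4 in siGFP arrays and 10.1 and 10.4 in untreated arrays, a difference of -0.40 (SE 0.14) against siGFP. Of 16 intermediate filament genes, Nes and Vim included, 10 were higher and 4 lower (median 0.05), or 7 higher and 6 lower (median 0.00) with arrays centred on a common median. Cyclic loess gave 12 higher and 4 lower (median 0.08). Of 9 fatty acid binding protein genes 3 were higher and 4 lower (median 0.00). With arrays centred on a common median 1 was higher and 6 lower (median -0.05). Cyclic loess gave 4 higher and 5 lower (median -0.02). Only Fabp12 (11.1% of the 9) did not overlap, at -0.20 with a mean of 3.80 inside the range of the receptor rows. Against untreated cells Fabp12 differed by 0.05 in siLin28a cells. None of these passed the threshold (adjusted p 0.953 by limma for Sox4, Sox3 and Tubb2b).

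The wider neural lists gave the surroundings of the members for siLin28a against siGFP, and in each of them 0 genes passed by limma. Of 26 neural plate and regional transcription factors 19 were higher, 5 lower and 2 equal (median 0.10), or 16 higher and 7 lower (median 0.05) with arrays centred on a common median. Cyclic loess gave 19 higher and 7 lower (median 0.08). Of the 26 genes 8 (30.8%) did not overlap, beside 20.8% of all tested rows. Hesx1, a homeobox repressor of the anterior neural plate and of early epiblast, had 4.1 and 4.2 in siLin28a arrays and 4.8 and 4.5 in siGFP arrays, a difference of -0.50 (SE 0.14) at a mean of 4.42, inside the range of the receptor rows. Rax, an eye-field factor, differed by 0.20. Of 26 Notch pathway genes 14 were higher and 10 lower (median 0.05), or 11 higher and 12 lower (median 0.00) with arrays centred on a common median. Cyclic loess went the other way, with 17 higher and 9 lower (median 0.06). The ligand gene Dll3 had 5.8 and 5.7 in siLin28a arrays, 5.2 and 5.3 in siGFP arrays and 5.3 and 5.4 in untreated arrays, a difference of 0.50 (SE 0.12). Hes1, a HES gene also expressed in ES cells, had 7.2 and 7.3 in siLin28a arrays, 7.7 in both siGFP arrays and 7.9 and 7.6 in untreated arrays, a difference of -0.45 (SE 0.14). Hes3, another HES gene, had 5.2 and 5.1 in siLin28a arrays, 5.0 and 4.3 in siGFP arrays and 4.8 and 4.9 in untreated arrays, a difference of 0.50 (SE 0.23) that is smaller than the gap between its siGFP arrays.

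Of 20 proneural and neurogenic factors 12 were higher and 8 lower (median 0.075), or 10 higher and 8 lower (median 0.025) with arrays centred on a common median. Cyclic loess gave 12 higher and 8 lower (median 0.07). Of the 20 genes 8 (40.0%) did not overlap, beside 20.8% of all tested rows. Id4, which encodes an inhibitor of bHLH factors, had 6.5 and 6.4 in siLin28a arrays, 7.4 and 7.1 in siGFP arrays and 6.7 and 6.3 in untreated arrays. Its difference was -0.80 (SE 0.18) against siGFP and -0.05 against untreated cells, with both siGFP arrays above the other 4. Id1, a BMP-responsive inhibitor of the same family, had 7.2 and 7.4 in siLin28a arrays, 6.4 and 7.0 in siGFP arrays and 6.7 and 6.8 in untreated arrays, a difference of 0.60 (SE 0.21). Neurod1, a neuronal differentiation factor, differed by 0.55 (SE 0.21) at a mean of 4.47, inside the range of the receptor rows. Among 16 neural stem cell and radial glia genes 8 were higher and 8 lower (median 0.00). Aldh1l1, a folate enzyme of astrocytes, was at -0.50 against siGFP and -0.05 against untreated cells, with siGFP itself at 0.45 against untreated cells. Ptprz1, a receptor phosphatase, was at -0.55 with a mean of 3.02, inside the range of the receptor rows.

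The 27 neuronal cytoskeleton and differentiation genes were divided, with 12 higher, 13 lower and 2 equal (median 0.00), or 10 higher and 15 lower (median -0.05) with arrays centred on a common median. Cyclic loess gave 14 higher and 13 lower (median 0.02). Of the 27 genes 10 (37.0%) did not overlap, beside 20.8% of all tested rows. In the other neural lists the share was 31.25% (neural stem cell and radial glia), 26.9% (Notch pathway), 20.0% (neural crest) and 12.5% (neuron markers). It was 37.5% in the SOXB and SOXC family and 18.75% among the intermediate filament genes. Crmp1, a regulator of axon growth, had 7.9 and 9.0 in siLin28a arrays, 7.3 and 7.8 in siGFP arrays and 7.7 and 7.9 in untreated arrays. Its difference was 0.90 (SE 0.36), with siLin28a replicate 2 well above all other arrays and replicate 1 level with an untreated array at 7.9. Dcx, a microtubule protein of migrating neurons, had 3.9 in both siLin28a arrays, 3.5 and 3.3 in siGFP arrays and 3.7 and 3.6 in untreated arrays, at a brightness within the range of receptor rows. Stmn3, a tubulin-binding stathmin, had 5.7 and 5.9 in siLin28a arrays, 6.1 and 6.6 in siGFP arrays and 6.4 and 6.7 in untreated arrays. Its difference was -0.55 (SE 0.21), with group means in the same order as those of Tubb3. Stmn3 has 2 rows, and only the brighter is given. Among 10 neural crest genes 5 were higher and 3 lower (median 0.025, and -0.025 with arrays centred on a common median). Cyclic loess gave 6 higher and 4 lower (median 0.05). Erbb3, a neuregulin receptor, was at -0.40 against siGFP, with siGFP itself at 0.55 against untreated cells. Ets1 was at 0.15 against siGFP and 0.00 against untreated cells. For siLin28a against siGFP all of these genes had an adjusted p of 0.953 by limma. Single-array omissions were examined for the members only.

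**Figure D3:**
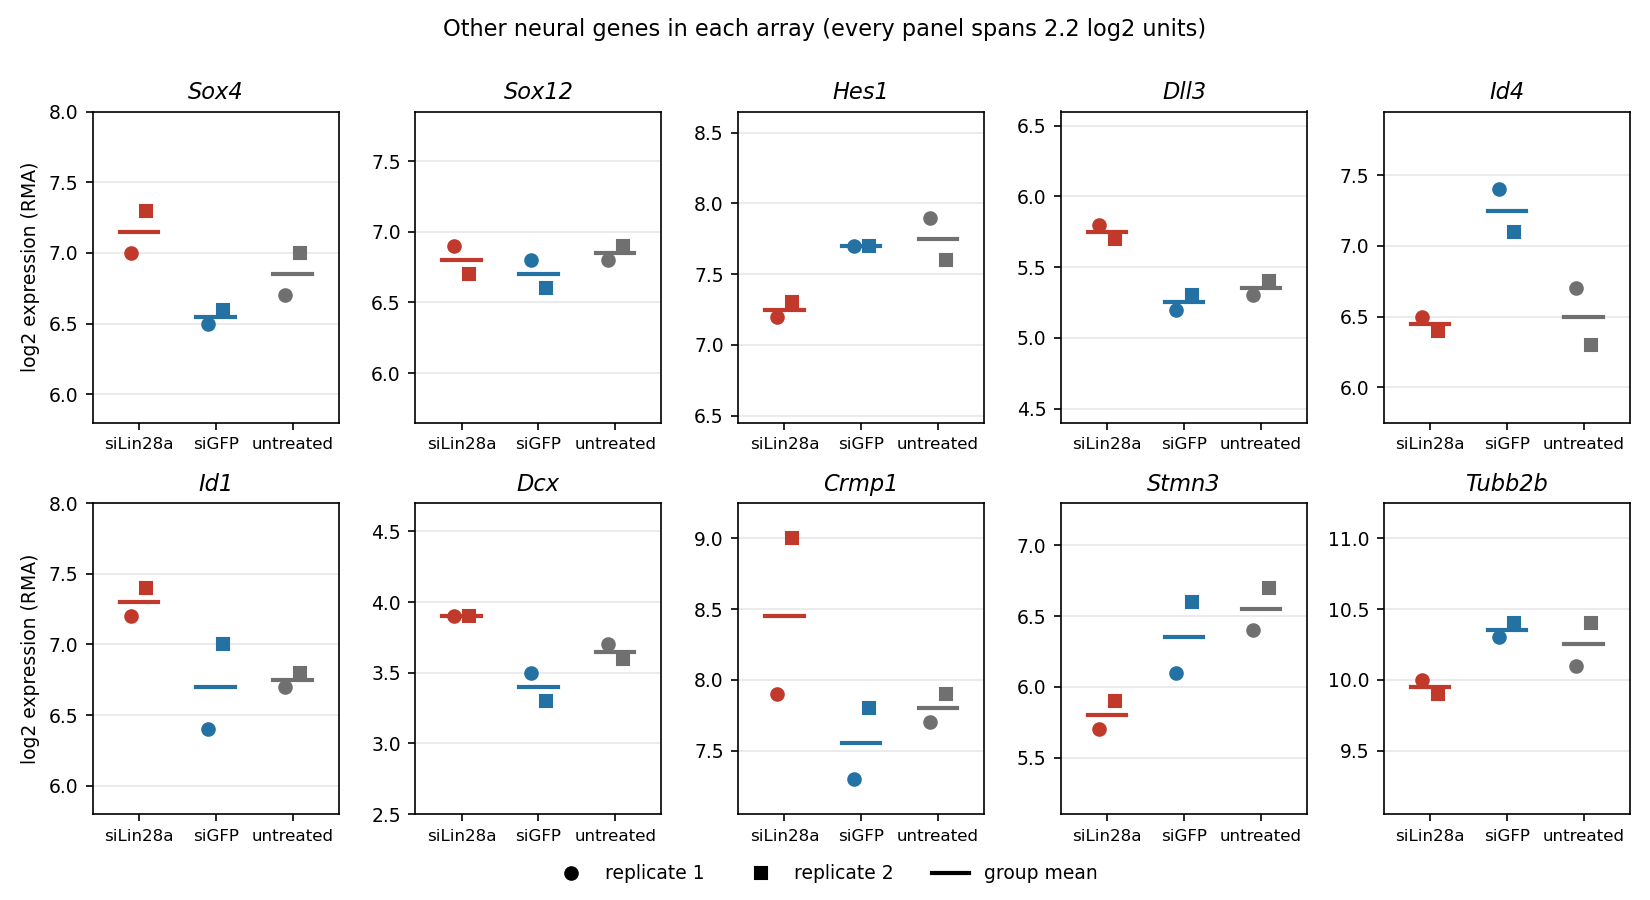
Log2 expression (RMA values, vertical axis, each panel spanning 2.2 units) of 10 other neural genes in the 2 siLin28a, 2 siGFP and 2 untreated arrays, with circles for replicate 1, squares for replicate 2 and bars for group means. The group means of Sox4 and Dll3 are highest and those of Hes1 and Stmn3 lowest in siLin28a cells, while Id4 is highest in the 2 siGFP arrays.

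**Figure D4:**
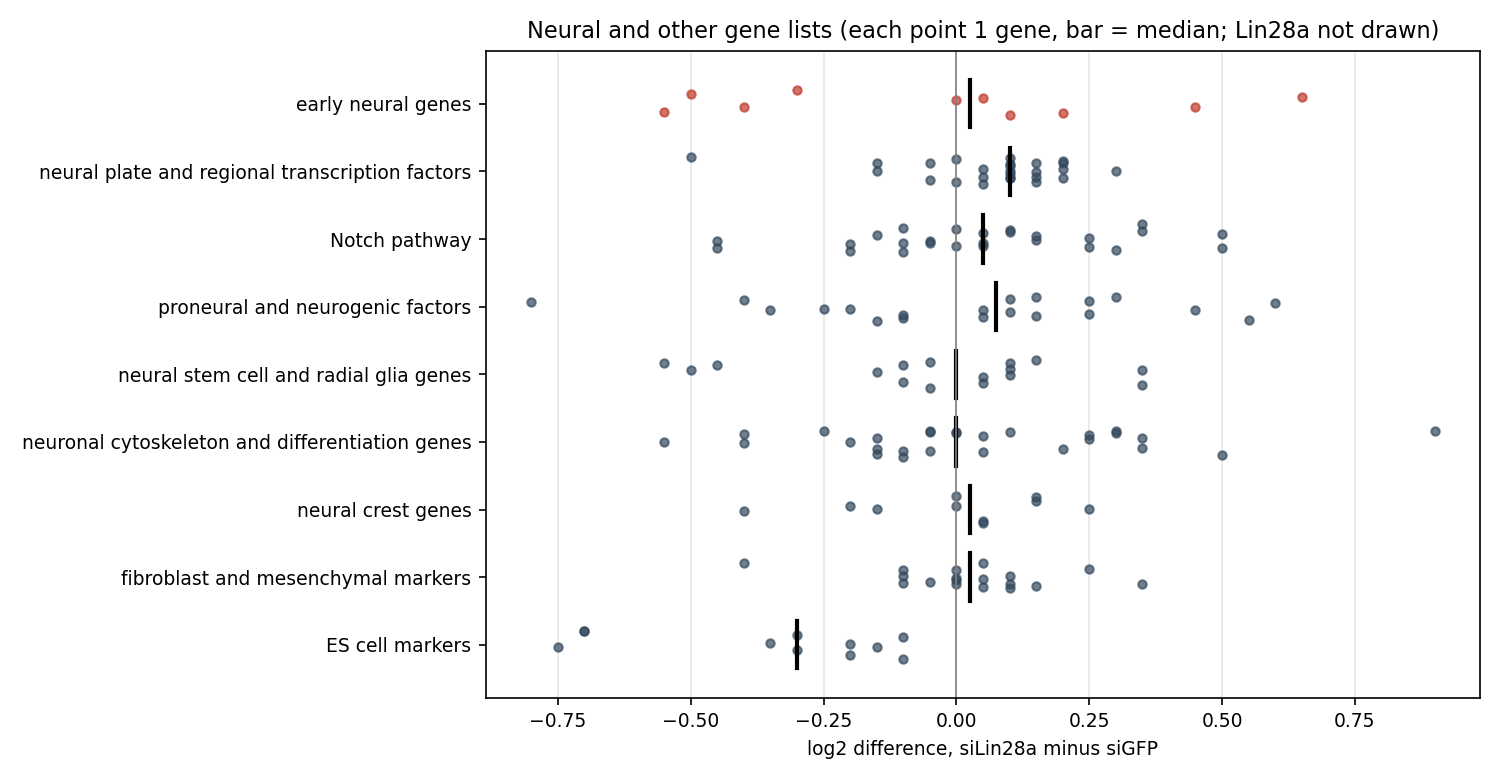
Log2 difference of siLin28a minus siGFP (horizontal axis) for each gene of the early neural genes and 8 other lists, 1 point per gene, with a bar at each list's median and Lin28a not drawn. The early neural genes spread from -0.55 to 0.65 around a median of 0.025, while the points of the ES cell markers all lie below 0.

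The rows most like each variable member over the 6 arrays are given as a description, since arrays of 1 group share their treatment and 2895 rows were searched. Sox11 was most like Unc5b, a netrin receptor (Pearson r 0.964 over 6 arrays), Id2 (0.949) and Car2 (0.940). Tubb3 was most like Ppp1cb, a phosphatase subunit (0.998), Nfatc2ip (0.994) and Atp11a (0.993), all with the lowest group mean in siLin28a and the highest in untreated cells. Map2 was most like Zfyve9 (0.965), Zbtb10 (0.964) and S100a10 (0.950), which also had their highest values in siGFP arrays. Ncam1 was most like Atf4, the transcription factor of the amino acid stress response (0.994), Mov10 (0.989) and Mthfd2, a mitochondrial folate enzyme (0.989), all highest in siGFP replicate 1 and lowest in siLin28a replicate 2. Nes was most like Mael, a germline gene (0.965), and 2 rows of Chd7, a chromatin remodeller of neural crest and progenitors (0.963 and 0.946). Pax6 was most like Dmrt1 (0.967) and 2 rows of Gm24463 with the same values (0.942 each). Vim was most like Fkbp9 (0.984), Rbpj (0.984) and Dcbld1 (0.977), which shared its higher replicate 2 in both siRNA groups. Rbpj has 2 rows, and this was the dimmer, at 6.6 and 6.7 in untreated arrays where the brighter had 9.8 and 9.9. The brighter Rbpj row was not among the 3 rows most like Vim. The 3 members with a range under 0.6, Sox1, Hes5 and Fabp7, varied too little for such a search.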

How the data were processed

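Messenger RNA of 6 samples was measured on Affymetrix arrays. The authors deposited log2 expression values made with Affymetrix Expression Console and RMA, per the submitters' processing notes. No software version or genome build is stated in the labels read for this work. Their log2 scale was read from the range of the values, which come in steps of 0.1. RMA's quantile step would hide a shift shared by most genes.

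The platform's annotation named 23410 of 35556 rows. Using limma 3.58.1 (R 4.3.3), all 6 arrays were fitted as 3 groups (eBayes without trend, 3 residual and 3.19 prior degrees of freedom, two-sided), with Benjamini-Hochberg adjustment over the 23410 rows at 0.05. No exact permutation test was run, since 0.333 is the smallest p that groups of 2 allow. Precision is limited by how few arrays there are.

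The members and lists were chosen with earlier results of these data known. Named are the members, up to 3 genes of each other list with the largest log2 difference among those not overlapping between siLin28a and siGFP, relatives that place a member, and, for members with a range of at least 0.6, the 3 rows (mean at least 6, range at least 0.6) with the highest Pearson r. Outside the search for like rows, which took each row alone, a gene was represented by its brightest row. Counts over a list cover its genes that have an own row; others were not analysed here. Alternatives were leaving out each array, the replicate number as a block, arrays centred on a common median, cyclic loess, leaving out rows with a mean under 6, a robust prior, an intensity trend, a fit of only the 4 arrays compared, and the mean of a gene's rows.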

Additional observations from a re-analysis of the deposited data

How the results depend on the processing

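Of 405 values of the 10 members under the alternatives, 0 passed the threshold and 5 turned their sign, and the smallest adjusted p was 0.263 (Tubb3 in siLin28a against untreated cells with a robust prior, limma). The turned values were small ones: Sox1 in siLin28a against untreated cells, at 0.0112 after cyclic loess and between -0.20 and 0.10 when 1 array was left out, Vim (-0.30 to 0.10) and Hes5 (-0.15 to 0.05) in the same comparison without 1 array, and Ncam1 in siGFP against untreated cells (-0.05 to 0.35). Without 1 array, Sox11 lay between 0.40 and 0.90 and Tubb3 between -0.75 and -0.35 against siGFP. The count of members past the threshold was 0 in all 3 comparisons under every alternative. With 1 array left out, members whose arrays do not overlap numbered 6 to 8 for siLin28a against siGFP. They numbered 5 to 8 for siLin28a against untreated cells and 3 to 7 for siGFP against untreated cells. By construction, leaving out an array can only raise these counts, and likewise the share of all rows. That share was not examined under these omissions. The shares given for the full set of arrays are therefore no measure for these counts. Over all rows, siLin28a against siGFP had 1 call after cyclic loess and 1 with a robust prior, both Lin28a (adjusted p 0.0441 and 0.0244), and siLin28a against untreated cells had 5 and 7, Lin28a among them (0.0230 and 0.0122). Leaving out rows with a mean under 6 removed Pax6, Nes, Map2, Ncam1 and Fabp7, so these 5 have no value there. Each member has 1 row, so the mean of a gene's rows changes no member's difference.

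The replicate numbers are shared by the 3 groups, but the labels do not say that a number marks a shared batch, and there are only 2 numbers. The replicate 1 minus replicate 2 differences correlated across rows at 0.357 between siGFP and siLin28a, 0.154 between untreated and siGFP and -0.0352 between untreated and siLin28a. With the replicate number as a block, 0 members and 0 rows passed in any comparison, and differences such as 0.65 for Sox11 were unchanged by construction.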

Other observations

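Other families of the members held 2 larger values outside the comparison of siLin28a with siGFP. Nefl, the light neurofilament subunit, had 6.7 and 6.8 in siLin28a arrays, 6.4 in both siGFP arrays and 5.9 and 5.7 in untreated arrays, so the 3 groups did not overlap. Its log2 difference was 0.95 for siLin28a against untreated cells (SE 0.13, adjusted p 0.463 by limma) and 0.60 for siGFP against untreated cells. Ina, the neuronal filament protein alpha-internexin, had 8.7 and 8.9 in siLin28a arrays, 8.6 and 8.3 in siGFP arrays and 8.1 and 8.3 in untreated arrays. Of the 16 intermediate filament genes, 10 were higher and 5 lower in siLin28a than in untreated cells, with a median of 0.125 beside 0.00 over all rows. Fabp3, a fatty acid binding protein of muscle and heart, had 9.6 and 9.2 in siGFP arrays and 8.3 and 8.8 in untreated arrays, a difference of 0.85. None passed the threshold, and these genes were picked out after their values were seen. Ina and Fabp3 have 2 rows each, and only the brighter is given.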
